A study of Mus musculus with 11 samples.

Results

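The genes for the 6 receptors that read collagen as a ligand through an integrin or a discoidin domain were followed in whole distal tibia: the integrin alpha subunits Itga1, Itga2, Itga10 and Itga11, and the discoidin domain receptors Ddr1 and Ddr2. They were taken by symbol from the merged count table, which lists 22600 genes, and all 6 were found there and kept for testing. The members were chosen by family with the CPM (counts scaled to a common library total) of the Control and BMAd-DTA libraries already seen, so their difference between these groups is given as a description with no p-value, and where the fit over all genes calls a member, nothing is read from the call. In BMAd-DTA tibiae, Itga10 stood 1.75-fold and Itga11 1.57-fold above controls with no overlap between the groups, Ddr2 stood higher with overlap, and Ddr1, Itga1 and Itga2 lay close to their control levels.

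RNA was sequenced from the distal tibia of 4 Control and 7 BMAd-DTA mice of the C57BL6/SJL background, 24 weeks old and fed ad libitum, with 1 library per mouse. BMAd-DTA mice carry Osterix-FLPo, a FLPo-dependent Cre placed in the adiponectin gene (Adipoq), and a ROSA-DTA allele behind a floxed STOP cassette, so that diphtheria toxin A kills cells that have expressed both Osterix and adiponectin, chiefly marrow adipocytes. The methods state that the mice carried Osterix-FLPo and the Adipoq Cre throughout, controls included. The study also describes some marrow adipocytes as remaining in the distal tibia of BMAd-DTA mice. The Cre allele itself is described as lowering circulating adiponectin, and controls share it. The bone was powdered whole, which puts marrow, mineralized tissue, cartilage and any attached muscle into each library.

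Integrins are pairs of an alpha and a beta chain that cross the membrane and join the matrix outside to the actin skeleton inside. The 4 alpha chains named here all pair with the beta chain encoded by Itgb1 and bind triple-helical collagen through an inserted domain. Itga1 is known from vessels, smooth muscle and immune cells, Itga2 from platelets and epithelium, Itga10 from cartilage, and Itga11 from fibroblasts and osteogenic stroma. Ddr1 and Ddr2 are receptor tyrosine kinases that are switched on slowly by native collagen, with Ddr1 best known in epithelium and Ddr2 in mesenchymal cells, where its loss leads to dwarfism in mice.

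Total counts in the merged table were 16969529 to 18637663 in Control and 17128711 to 18432805 in BMAd-DTA libraries. Adipocyte marker genes, which check the genotype, had negative log2 fold changes in 8 of 8, with a summed level of 955 to 1648 CPM in Control and 361 to 1186 in BMAd-DTA. The bone label was borne out by osteoblast and osteocyte genes, whose sum was 584 to 1507 CPM in Control and 1517 to 2738 in BMAd-DTA. Muscle genes ranged from 14.1 to 929 CPM in Control and from 14.8 to 751 in BMAd-DTA, so the muscle left on the bone varied within both groups. In whole bone, fewer cells of a type and less RNA per cell cannot be told apart.

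Itga10 lies on chromosome 3 of mm10 (GRCm38), at chr3:96645584-96664519 on the plus strand, and Itga11 at chr9:62677826-62783982, also on the plus strand. The stretches just before the start of each are shown because these are the pair of genes whose levels did not overlap between groups. Each covers 217 bases up to the base before the start and was read from RefSeq (GRCm38.p6), whose promoter table held all 6 receptor genes. Capitals mark matches to any of 7 motifs searched on both strands.
Itga10, chr3:96645367-96645583, plus strand: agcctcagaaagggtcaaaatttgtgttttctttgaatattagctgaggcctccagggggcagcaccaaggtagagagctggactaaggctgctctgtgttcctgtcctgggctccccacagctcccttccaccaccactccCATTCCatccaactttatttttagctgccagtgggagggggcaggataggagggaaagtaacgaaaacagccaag
Itga11, chr9:62677609-62677825, plus strand: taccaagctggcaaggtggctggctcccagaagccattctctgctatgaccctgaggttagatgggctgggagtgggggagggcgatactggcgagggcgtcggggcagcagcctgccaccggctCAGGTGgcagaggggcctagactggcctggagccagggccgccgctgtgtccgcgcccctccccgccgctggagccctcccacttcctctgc
The motifs were the RUNX core TGTGGT, the TEAD core GGAATG, the AP-1 site TGANTCA, the E-box CANNTG, the TATA box TATAAA, the CCAAT box CCAAT and the GC box GGGCGG. The TEAD core, AP-1 site and E-box were added after the sequences had been read. Itga10 held 1 TEAD core, with its first base at -75 from the start, and Itga11 held 1 E-box, with its first base at -92. Of 32851 windows of the same length in the table, 11% held the TEAD core and 61.2% an E-box, while the RUNX core was in 12.3%, the AP-1 site in 5.87%, the TATA box in 10.8%, the CCAAT box in 30.9% and the GC box in 31.7%. The Itga10 stretch was 52.1% G and C and that of Itga11 69.1%, against a median of 52.5% over all windows. A match of letters is a description of these windows and not a binding site.

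Itga10, the alpha subunit known from chondrocytes, was even in controls, at 17.5, 20.8, 22.7 and 20.7 CPM (mean 20.4 ± 2.17, SD, n = 4). In BMAd-DTA tibiae it ran from 30.2 to 48.8 CPM with a median of 34.4 (mean 35.8 ± 6.35, n = 7). All 7 BMAd-DTA libraries were above the highest control, and 1 of them, replicate 3, stood well above the rest. The log2 fold change was 0.81 with a standard error (SE) of 0.13, higher than that of 97.3% of the 16496 genes tested.

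Itga11, the alpha subunit of fibroblasts and osteogenic cells, was likewise even in controls, at 16.4, 19.5, 20.1 and 17.5 CPM (mean 18.4 ± 1.75, n = 4). BMAd-DTA libraries ran from 24.6 to 32.7 CPM with a median of 29.2 (mean 28.9 ± 2.73, n = 7). Again all 7 lay above every control, and the coefficient of variation stayed at 9.50% in Control and 9.45% in BMAd-DTA, the lowest of the 6 genes in the depleted group. The log2 fold change was 0.65 (SE 0.093).

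Ddr2, the discoidin receptor of mesenchymal cells, lies on the minus strand at chr1:169972307-170110762. Its control levels were 64.5, 69.0, 84.1 and 67.5 CPM (mean 71.3 ± 8.77, n = 4), and its BMAd-DTA levels ran from 72.6 to 111 CPM with a median of 88.0 (mean 90.4 ± 12.3, n = 7). The groups overlapped, with 5 of 7 BMAd-DTA libraries above every control, and the log2 fold change was 0.34 (SE 0.11). As with Itga10, the highest library was BMAd-DTA replicate 3.

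Ddr1, the epithelial counterpart, lies on the minus strand at chr17:35681567-35704621. It measured 19.5, 18.4, 24.6 and 17.3 CPM in controls (mean 19.9 ± 3.25, n = 4) and 16.0 to 27.0 CPM with a median of 23.4 in BMAd-DTA (mean 21.4 ± 4.23, n = 7). The BMAd-DTA libraries spanned the control range on both sides, and the log2 fold change of 0.10 was smaller than its SE of 0.15.

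Itga1 and Itga2 are neighbours on the minus strand of chromosome 13, at chr13:114953096-115101964 and chr13:114833081-114932100, 20995 bases apart. Itga1, known from vessels, had control levels of 95.5, 84.9, 87.7 and 96.5 CPM (mean 91.1 ± 5.75, n = 4) and BMAd-DTA levels of 69.4 to 99.5 with a median of 84.8 (mean 86.8 ± 10.5, n = 7). Its groups overlapped, and the log2 fold change was -0.070 (SE 0.091). Itga2, known from platelets and epithelium, measured 53.1, 44.8, 38.0 and 63.9 CPM in controls (mean 49.95 ± 11.2, n = 4). In BMAd-DTA it ran from 41.1 to 72.6 CPM with a median of 47.7 (mean 49.8 ± 10.5, n = 7). Here the spread within a group was the widest of the 6, with a coefficient of variation of 22.4% in Control and 21.1% in BMAd-DTA, and the log2 fold change was -0.0049 (SE 0.16). Megakaryocyte and platelet marker genes summed to 1152 to 2133 CPM in Control and 976 to 1782 in BMAd-DTA, and their part in the spread of Itga2 was not tested.

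**Figure D1:**
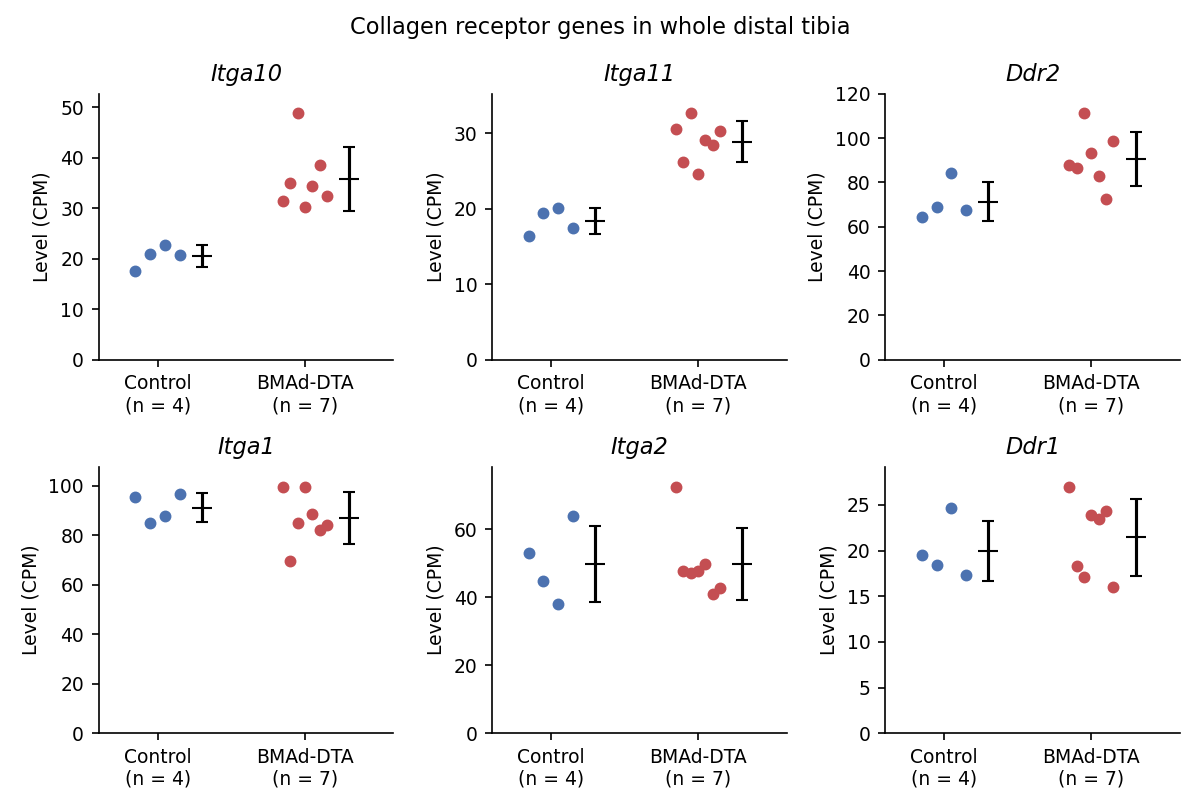
Level in CPM of each receptor gene in 4 Control and 7 BMAd-DTA libraries, 1 point per mouse, with the mean and SD of each group as a bar at its right. Itga10 and Itga11 separate without overlap, at 17.5 to 22.7 against 30.2 to 48.8 CPM and at 16.4 to 20.1 against 24.6 to 32.7 CPM, while the other 4 genes overlap.

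By edgeR's quasi-likelihood test, adjusted by Benjamini-Hochberg across the whole table, 2 of the 6 receptor genes passed an adjusted p of 0.05, where 0.0788% of all genes did. Without overlap and higher in BMAd-DTA were 2 of the 6, where 1.78% of all genes were. These shares stand beside the counts for reference, because the same levels were in view when the set was chosen. The median log2 fold change over all genes tested was 0.0018.

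Markers of bone-forming cells were higher in BMAd-DTA, as Itga10 and Itga11 were. Of the osteoblast and osteocyte markers, 8 of 8 had positive log2 fold changes, where 50.4% of all genes tested did. Alpl, which encodes the bone alkaline phosphatase, passed the test at a log2 fold change of 1.16 (edgeR adjusted p = 0.0326). The marker genes were chosen with earlier results of these data known, so their values are a description. The mean log2 CPM of the osteoblast and osteocyte markers was then put in the model as a score. With it, the log2 fold change was 0.44 (SE 0.18) for Itga10, 0.48 (SE 0.15) for Itga11, 0.087 (SE 0.16) for Ddr2 and 0.11 (SE 0.14) for Itga1. Chondrocyte markers summed to 418 to 688 CPM in Control and 746 to 920 in BMAd-DTA, but 1 gene, Col2a1, which is also among the collagen chains, carried this separation. Without Col2a1 the other 7 summed to 255 to 431 and 292 to 459 CPM, with overlap, and Acan, Comp, Sox9, Hapln1 and Cnmd had log2 fold changes from -0.037 to 0.19, and Col9a1, at 0.737 CPM in Control, one of 0.95. With the chondrocyte score in the model Itga10 was at 0.60 and Itga11 at 0.63, with that score without Col2a1 at 0.70 and 0.65, and with the muscle score at 0.78 and 0.67. None of the 6 genes passed the adjusted threshold in any of these 4 models. Over the whole table, 2 genes passed with the muscle score and 0 with each of the other scores. The osteoblast sum separates along with the groups, so the genotype and the osteoblast RNA of the tissue cannot be told apart.

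Single libraries also bore on the calls. Neither Itga10 nor Itga11 passed when replicate 1 or 2 of Control was left out, or replicate 1 or 6 of BMAd-DTA. In each of those fits 0 genes of the whole table passed. Of Itga10 and Itga11, only Itga11 passed without replicate 2, 4, 5 or 7 of BMAd-DTA, where 12, 3, 13 and 14 of all genes did. Over the 11 fits with a library left out, the log2 fold change stayed between 0.72 and 0.87 for Itga10 and between 0.60 and 0.70 for Itga11. Ddr2 ranged from 0.29 to 0.44 and Ddr1 from 0.041 to 0.22. Itga2 crossed zero, from -0.12 without BMAd-DTA replicate 1 to 0.14 without Control replicate 4.

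**Figure D2:**
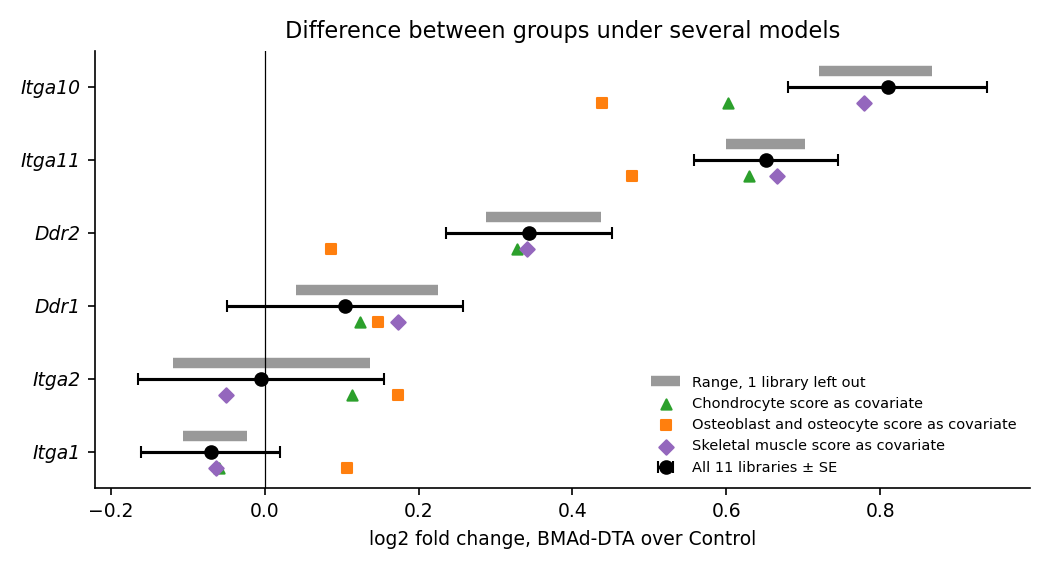
Log2 fold change of BMAd-DTA over Control for each receptor gene, as black points with SE for all 11 libraries, grey bars for the range with 1 library left out, and coloured marks with a cell type score in the model. The osteoblast score brings Itga10 from 0.81 to 0.44 (SE 0.18), Itga11 from 0.65 to 0.48 (SE 0.15) and Ddr2 from 0.34 to 0.087 (SE 0.16).

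Levels between genes were compared per length, as CPM per kilobase of exons. The choice of the set had not compared genes with one another. An order over all libraries still takes in the difference between groups, which was in view at that choice. Ddr2 came highest, at 7.69 ± 0.95 in Control and 9.76 ± 1.32 in BMAd-DTA, and was followed by Itga2 at 7.003 ± 1.57 and 6.98 ± 1.47. Itga10 measured 3.94 ± 0.42 and 6.91 ± 1.22, and Itga11 3.58 ± 0.34 and 5.63 ± 0.53. Itga1 measured 4.90 ± 0.31 and 4.67 ± 0.57, and Ddr1 4.18 ± 0.68 and 4.49 ± 0.89. By geometric means, the order in Control ran from Ddr2 through Itga2, Itga1, Ddr1 and Itga10 to Itga11, and in BMAd-DTA from Ddr2 through Itga2, Itga10, Itga11 and Itga1 to Ddr1. Over all 11 libraries the order was that of the larger BMAd-DTA group, and neighbours were tested in it.

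Of the 5 pairs of neighbours in this order, 2 passed the adjusted threshold in an exact two-sided paired sign-flip test, adjusted over the 5. The neighbours were picked by their level in the same libraries, and both groups were pooled, so the difference between groups enters these p-values. The p-values also take the chosen length as given, so they are a description and do not establish a difference in level. Ddr2 was 1.29-fold above Itga2, and higher in 8 of 11 libraries (exact p = 0.0166, adjusted p = 0.0415). It was higher in 2 of 4 Control and 6 of 7 BMAd-DTA libraries, and with a library left out this pair passed in 3 of 11 fits, those without Control replicate 1, Control replicate 4 or BMAd-DTA replicate 1, with an adjusted exact p of 0.0195 to 0.0830 over the 11. Itga10 was 1.17-fold above Itga11, and higher in 11 of 11 (exact p = 0.000977, the smallest that 11 libraries allow, adjusted p = 0.00488). As a fixed pair it passed in 11 of 11 fits with a library left out. With the same sign in every library those fits had to pass, so they are no further check of this pair. The tests of Itga2 with Itga10 and of Itga1 with Ddr1 gave an adjusted exact p of 0.142 each, and that of Itga11 with Itga1 gave 0.947.

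The order depends on the length chosen. Itga1 has 18599 exon bases over all of its transcripts but 10967 in the longest, and with the longest transcript as the length Itga1 moved to the second place, between Ddr2 and Itga2, and Itga11 to the last. In the GENCODE M21 annotation, which matched 99.89% of the gene identifiers, 1739 of the 5186 exon bases of Itga10 (33.5%) are shared with Gm42957, a gene model on the same strand that drew 19 counts in all libraries together. STAR gives a read pair that fits both genes to neither, so counts from these bases are missing from Itga10. With only unshared bases as the length, Itga10 came second, ahead of Itga2. Itga1 shares 685 exon bases (3.68%) with Gm49395 in the same way. Ddr1 and Ddr2 overlap genes on the opposite strand by 216 and 90 bases, and the libraries keep strand: 0.051% to 0.307% of the pairs of the 6 genes fell on the other strand.

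**Figure D3:**
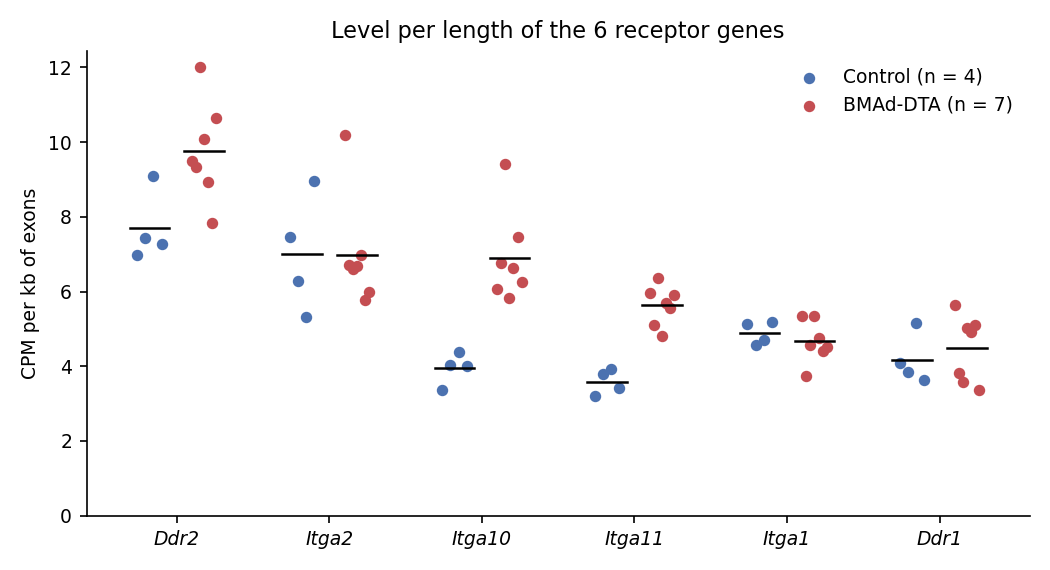
Level of the 6 receptor genes in CPM per kilobase of exons, 1 point per library and a line at each group mean, in the order of their level over all libraries. With all exons as the length, Ddr2 is highest in both groups, and Itga10 and Itga11 lie below Itga1 in Control but above it in BMAd-DTA by their means.

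The makeup of the alpha subunits was read from the same scale, again as a description. Itga10 and Itga11 together made up 39.0% ± 5.52 (SD, n = 4) of the summed level per kilobase of the 4 alpha genes in Control and 51.9% ± 5.18 (n = 7) in BMAd-DTA. The ranges, 34.3% to 45.3% and 43.6% to 58.6%, overlapped. Ddr2 stood 1.85 ± 0.14 times above Ddr1 in Control and 2.29 ± 0.73 times in BMAd-DTA.

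Whether the receptor genes vary together from mouse to mouse was asked with the group means removed, which takes the difference between groups out. Of 15 pairs, 0 passed Benjamini-Hochberg adjustment by a permutation test within groups (100000 resamples, 11 libraries), and 1 by r and 1 by rho had an unadjusted p under 0.05, both of them Itga10 with Itga11. That pair had a Pearson r of 0.64 (permutation p = 0.0466, adjusted 0.620) and a Spearman rho of 0.68 (permutation p = 0.0286, adjusted 0.309). Without the 2 libraries farthest from the median of Itga10 the r was 0.31, and with 1 library left out it ran from 0.49 to 0.76. Leaving out the farthest libraries also narrows the range of Itga10. The lower r therefore cannot show whether the relation rests on them. The chromosome 13 neighbours Itga1 and Itga2 had an r of 0.55 (permutation p = 0.0867, adjusted 0.620) and a rho of 0.62 (permutation p = 0.0607, adjusted 0.309), with an r of 0.92 without the 2 farthest libraries.

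The genes whose residual levels tracked each receptor most closely over the 11 libraries, among 12972 genes averaging 50 counts or more, are named as a description, since points from one library share its depth and tissue makeup. They are also the highest of 12972 values of r on 11 libraries, so a high r was selected for and was not tested against chance. For Itga10 these included the tetraspanin gene Cd63 (r = 0.94), Marveld1, Ttc38 and Fbxl4. For Itga11 they were Tmem30b (r = 0.93), Tm9sf1 (r = 0.93), Dpyd, Pex11a and Plekha5. For Ddr2 they were the insulin receptor gene Insr (r = 0.95), Tmppe, Map3k3, Mgp (r = 0.93), an inhibitor of mineralization made by cartilage and vessels, and Slc8a3. For Ddr1 they were Dlc1 (r = 0.95), Pxdn (r = 0.95), which encodes a peroxidase of basement membranes, Shank3, Abcb1a and C130074G19Rik. For Itga1 they were Efna5 (r = 0.97), Wdfy3, Asph, Cyb5b and Idi1, and for Itga2 they included Mapk6 (r = 0.94), Ptpn3, Mansc1 and Trpc1.

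The beta chain that all 4 alpha subunits need, Itgb1, measured 295 ± 25.3 CPM in Control and 294 ± 20.2 in BMAd-DTA (edgeR adjusted p = 0.988). Many other alpha subunits pair with it as well. Of 7 beta subunits tested 0 passed, with 4 positive log2 fold changes and a median of 0.013, from 0.13 for Itgb5 and 0.084 for Itgb8 to -0.0076 for Itgb2 and -0.11 for Itgb3, the platelet and osteoclast beta chain. None of the 7 had an unadjusted p under 0.05 by edgeR, and 0 passed by DESeq2. For this list and those below, the reference is the whole table. Of 16496 genes tested, 50.4% had positive log2 fold changes and 2708 had an unadjusted p under 0.05 by edgeR. The adjusted threshold was passed by 0.0788% in edgeR and by 845 of 15583 genes in DESeq2. Like the receptors, the lists were chosen with earlier results of these data known, so their counts are a description.

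Of the 14 alpha subunits outside the receptor set, 0 passed by edgeR or DESeq2 and 1 (Itgav) had an unadjusted p under 0.05 by edgeR. Positive log2 fold changes were found for 5, and the median over the 14 was -0.064. The extremes were 0.45 for Itgav, the alpha chain of the vitronectin receptor, and 0.19 for the laminin receptor gene Itga3 at the top, with -0.25 for Itga7 and -0.26 for Itga6, also laminin receptors, at the bottom. Inside the cell, integrin tails are bound by talin, kindlin and the adaptors of focal adhesions. Of 23 such genes tested 0 passed, 2 had an unadjusted p under 0.05 and 1 (Tns3) passed by DESeq2; their median log2 fold change was -0.021, and the extremes were 0.30 for Tns3 and 0.30 for Lims2, and -0.16 for Parvb and -0.23 for Tln2. Of 7 genes for partners of the discoidin receptors 0 passed by edgeR or DESeq2 and 2 (Ptpn11 and Adam10, both lower) had an unadjusted p under 0.05, with a median of -0.078, from 0.070 for the kinase gene Csk to -0.20 for the phosphatase gene Ptpn11 and -0.24 for Adam10, a protease that sheds Ddr1.

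Of 6 other collagen receptors 0 passed by edgeR, 1 (Mrc2) passed by DESeq2 and the same 1 had an unadjusted p under 0.05 by edgeR, with a median log2 fold change of -0.031. Mrc2, the endocytic receptor through which mesenchymal cells take up cleaved collagen, measured 74.3 ± 13.9 CPM in Control and 120 ± 19.2 in BMAd-DTA, without overlap (64.2 to 94.4 against 104 to 160 CPM). Its log2 fold change was 0.69 (SE 0.13), and it missed the threshold (edgeR adjusted p = 0.0675). Oscar, a collagen receptor of osteoclast precursors, had a log2 fold change of 0.94 with an SE of 0.44, Lair1, an inhibitory receptor of leukocytes, -0.19, and Gp6, the platelet collagen receptor, -0.25.

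The ligands were read from 20 collagen chains. All 20 had positive log2 fold changes, with a median of 0.53, where 50.4% of all genes tested were positive. By edgeR 0 passed the adjusted threshold. An unadjusted p under 0.05 by edgeR was found for 11, where 2708 of all 16496 genes had one. By DESeq2 6 passed, where 845 of 15583 genes did. The largest were 1.35 for Col1a1 and 1.34 for Col11a1, and the smallest were 0.14 for Col4a2 and 0.12 for Col4a1, the basement membrane chains. Col1a1 itself ran from 1245 to 6226 CPM in Control and from 7609 to 18037 in BMAd-DTA, without overlap (edgeR adjusted p = 0.115). The collagen chains and the receptor genes were measured in the same libraries, so the ligand values are no independent support for those of the receptors.

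**Figure D4:**
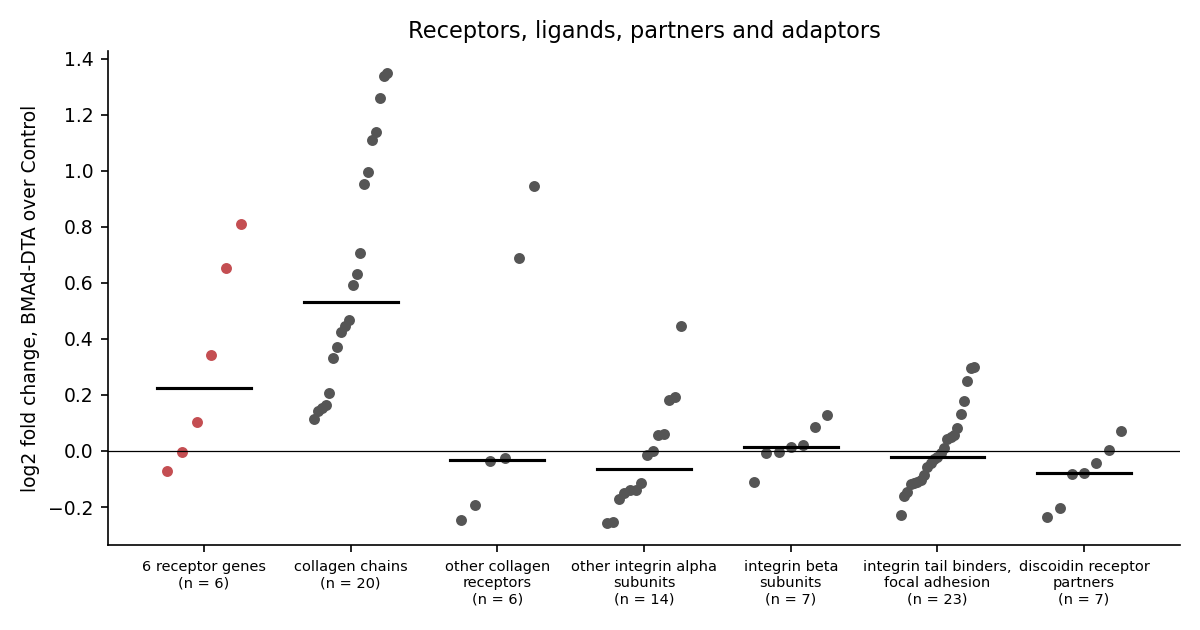
Log2 fold change of BMAd-DTA over Control for the 6 receptor genes and for tested genes of the 6 related lists, 1 point per gene and a line at each median. The medians of the integrin, adaptor and partner lists lie between -0.078 and 0.013, and that of the collagen chains at 0.53.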

How the data were processed

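Strand-specific libraries from powdered distal tibia were sequenced as paired-end 100 bp reads. Per the submitters' notes and methods, the authors checked reads with FastQC 0.11.9, aligned them with STAR at default settings to mm10, and tested genotype with DESeq2; the annotation release is not given in the sources used here. The authors deposited raw counts of read pairs per gene, for each library (55401 genes) and merged over libraries (22600 genes, those of low total removed).

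From the merged counts, edgeR 4.0.16 in R 4.3.3 was run with filterByExpr, TMM scaling, genotype as the sole term and the quasi-likelihood test, adjusted by Benjamini-Hochberg across 16496 genes. Of these, 13 passed an adjusted p of 0.05 (12 higher in BMAd-DTA), and 2708 had an unadjusted p under 0.05. CPM used TMM-scaled totals, and log2 CPM a prior count of 2. SE is the log2 fold change over the root of F. Replicates were numbered in the order of deposit. Exon lengths came from GENCODE M21. The script was tested on simulated data.

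The members, pathway lists and markers were chosen with earlier results of these data known. Named genes were the 6 receptors, Itgb1, any pathway gene past the threshold, the 2 highest and 2 lowest of each pathway list, and the 5 genes most like each receptor, of which some are not reported here. Alternatives were limma-voom 3.58.1, DESeq2 1.42.0, other scalings, filters and count columns, cell type scores as covariates, and each library left out.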

Additional observations from a re-analysis of the deposited data

Results flagged for a closer look

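Itga2 in BMAd-DTA replicate 1, at 72.6 CPM, stood apart from the other 6 libraries of its group: its gap to the next was 0.725 of the group's range, above the critical value of 0.568 for 7 samples. Of 12 groups examined (6 genes in 2 groups) this was the 1 that stood out in this way, and chance alone marks about 1 group in 20. Without this library the log2 fold change of Itga2 was -0.12 (SE 0.12).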

How the results depend on the processing

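The log2 fold changes of Itga10, Itga11, Ddr1 and Ddr2 stayed positive under every alternative run. The count of all genes past an adjusted p of 0.05, 13 in edgeR, was 845 with DESeq2, 20 with limma-voom, 20 with RLE scaling, 2 with the muscle score, 0 with the chondrocyte score, 0 with that score without Col2a1 and 0 with the osteoblast score. It ranged from 0 to 292 with a library left out: 292 without Control replicate 3, 89 without Control replicate 4, 8 without BMAd-DTA replicate 3, 3 without BMAd-DTA replicate 4, and 0 without Control replicate 1 or 2 or BMAd-DTA replicate 1 or 6. DESeq2 called 1 focal adhesion gene (Tns3), 1 other collagen receptor (Mrc2) and 6 collagen chains (Col1a1, Col1a2, Col2a1, Col5a1, Col6a3 and Col16a1). With a library left out, edgeR called 0 to 1 of the other collagen receptors and 0 to 3 of the collagen chains, with Mrc2, Col2a1, Col5a1 and Col6a3 passing without Control replicate 3. The osteoblast score and the score without Col2a1 were chosen after seeing the data. The osteoblast score moved the log2 fold change of Itga1 to 0.11 (SE 0.14), Itga10 to 0.44 (SE 0.18), Itga11 to 0.48 (SE 0.15) and Ddr2 to 0.087 (SE 0.16). The cause was not tested.

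The number of neighbour pairs in the order of levels that passed, 2 with all libraries, was 1 with exon bases that no other gene shares, a length also chosen after seeing the data, and 0 to 2 with a library left out, where Itga1 often came between Itga10 and Itga11 and changed the pairs compared. With the pairs kept as they were, also chosen after seeing the data, Itga10 over Itga11 passed in 11 of 11 fits and Ddr2 over Itga2 in 3 of 11. For Itga10 over Itga11 that outcome was fixed beforehand, because Itga10 was higher in every library. No pair of receptor genes passed in the correlations under any alternative. No paired analysis was possible because the labels give no replicate numbers that the groups share.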
